A study of Mus musculus with 2 samples.

Results

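Collagen genes were compared between EpCAM-positive cells of PyMT mouse breast tumours with a conditional knockout of Zeb1 (PyMT;Zeb1cKO) and EpCAM-positive cells of PyMT tumours. The genes are all those listed in either deposited table under a symbol made of Col, a type number, the letter a and a chain number, which gave 43 of the 16902 listed genes. Of these, 42 were listed in the knockout library and 43 in the PyMT library, and a gene missing from a table entered at 0. Type XXII (Col22a1) was listed in neither library. Both groups carry polyoma middle T, the viral oncogene that drives the tumours, and the knockout group also lacks Zeb1 conditionally. The study asked how Zeb1 in tumour cells acts on the state of macrophages. The Zeb1 protein binds DNA at E-boxes and is known for repressing epithelial genes such as the one for E-cadherin. Each group has 1 library, so every difference is one between these 2 libraries, with no replicate check and no test. Not given in the sources used here are the Cre driver, the deleted part of Zeb1, the age and strain of the mice and whether a library pools animals.

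Collagens are secreted or membrane-bound proteins built from alpha chains that wind into a helix. Fibrillar collagens (types I, II, III, V and XI, with XXIV and XXVII) form the fibres of connective tissue and cartilage and are made mostly by fibroblasts, chondrocytes and related cells. Basement membrane collagens (type IV as a network, with types XV and XVIII) lie in the sheet beneath epithelium and around vessels. The remaining types tie fibres together (the fibril-associated types IX, XII, XIV, XVI, XIX and XX), form beaded filaments (VI), anchor epithelium to stroma (VII and XVII) or span the membrane (XIII, XVII, XXIII and XXV). In breast tumours, fibrillar collagen is mainly a product of stromal fibroblasts, whereas tumour and myoepithelial cells also contribute to the basement membrane.

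The knockout library held 21277484 estimated counts and the PyMT library 21580274. Zeb1 had 38 estimated counts in the knockout library and 96 in the PyMT library, a ratio of 0.401 (0.268 to 0.590), which checks the label only as far as the counted sequence is deleted. Epcam, which encodes the adhesion molecule behind the isolation, was at 479.66 and 740.82 FPKM in the knockout and PyMT libraries (FPKM, as deposited by the authors, counts fragments relative to gene length and library depth). Zeb1 was at 0.32 FPKM in the knockout library and 0.79 in the PyMT library, below an FPKM of 1 in both. Levels below are FPKM. Count ratios are the share of estimated counts in the knockout library over that in the PyMT library, with 95% intervals that cover counting error only. A gene was called at least 2-fold higher or lower from the log2 ratio of FPKM + 1, knockout over PyMT, when it reached an FPKM of 1 in at least 1 library; the added 1 understates the difference of low genes.

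Collagens as a whole took much the same share of both libraries, while single types differed in both directions. Together the 43 genes held 0.651% of estimated counts in the knockout library (exact binomial interval 0.647 to 0.654) and 0.610% in the PyMT library (0.606 to 0.613). The count ratio was 1.07 (1.06 to 1.08), and 0.962 with the library totals scaled by TMM factors, so the direction of this sum turned with the scaling. Of the 43 genes, 30 reached an FPKM of 1, of which 4 were at least 2-fold higher, or 13.3%, and 4 at least 2-fold lower, also 13.3%. Over all 12653 genes compared, 10.2% were 2-fold higher and 8.78% lower, so the collagen shares lie near the background. With a scaling by the median ratio or by TMM factors, 3 collagens were 2-fold higher and 5 lower, as Col9a3 dropped below the threshold and Col12a1 passed it. The median log2 ratio was -0.11 over the 30 collagens and 0.13 over all genes compared; the 2 other scalings brought the median of all genes to 0.02 and -0.00.

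**Figure D1:**
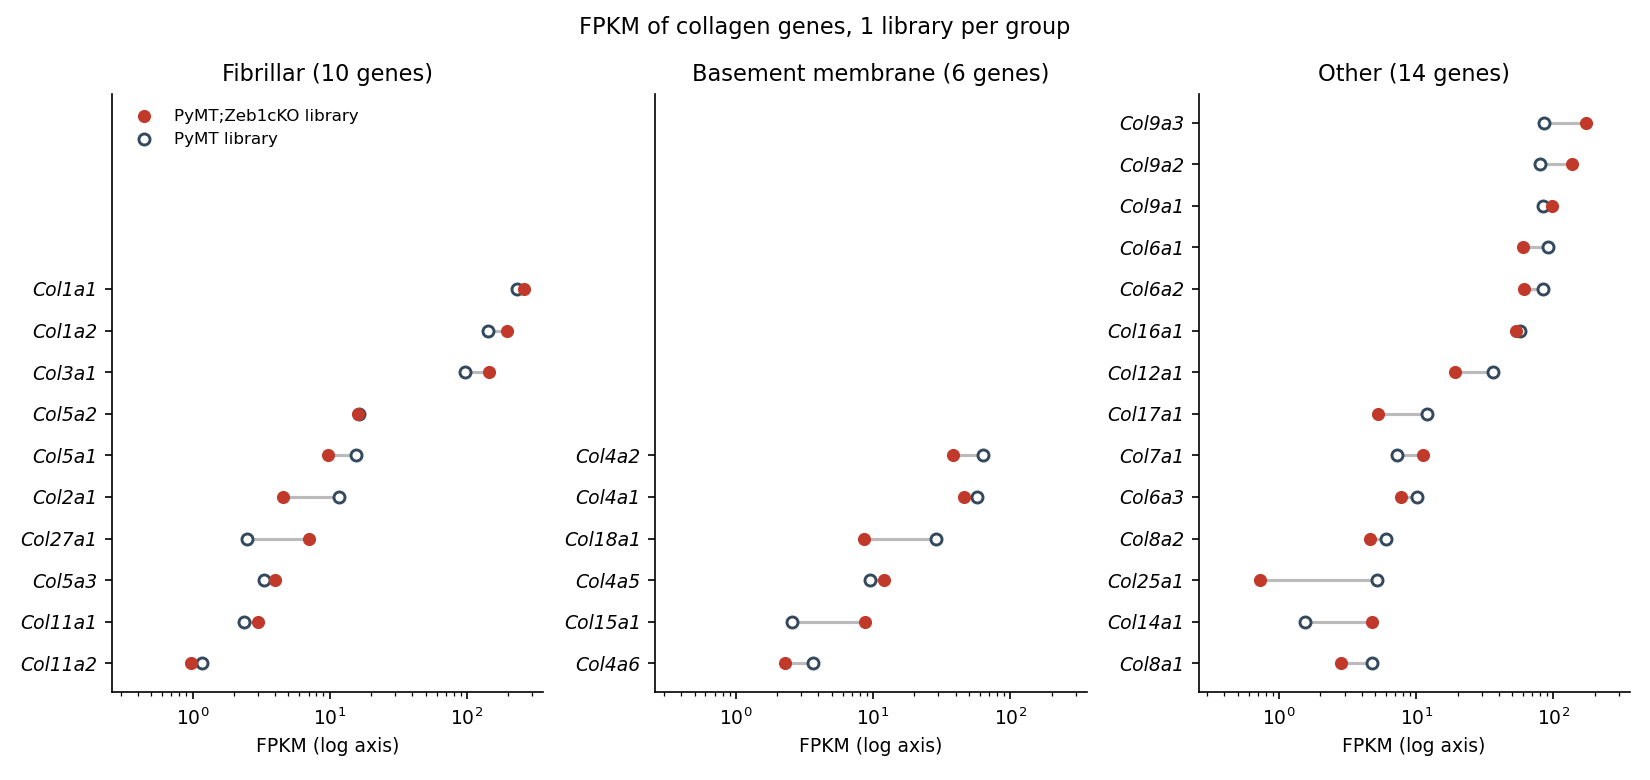
FPKM (log axis) of the 30 collagen genes that reached an FPKM of 1, in 3 panels by class; filled red points are the PyMT;Zeb1cKO library, open points the PyMT library, and a grey line joins both values of a gene, with 1 library per group and no error bars. Col1a1 is the highest collagen in both libraries, at 258.95 and 230.84, and Col25a1, Col18a1, Col15a1, Col14a1 and Col27a1 have the longest lines.

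The class sums moved apart. Fibrillar collagens held 0.358% of counts in the knockout library and 0.293% in the PyMT library, a count ratio of 1.22 (1.21 to 1.24). Types I and III carried that sum, with a ratio of 1.27 (1.25 to 1.28), while the 8 other fibrillar genes together had a ratio of 0.888 (0.859 to 0.918). Among those 8, the 7 that reached an FPKM of 1 had a median log2 ratio of -0.01. Basement membrane collagens held 0.0714% and 0.10%, a ratio of 0.713 (0.698 to 0.728). The other collagens held 0.222% and 0.217%, a ratio of 1.02 (1.01 to 1.04) that became 0.921 with TMM factors. The fibrillar sum stayed above and the basement membrane sum below an equal share with TMM factors, at 1.10 and 0.642. Class medians of the log2 ratio were 0.19 for 10 fibrillar genes, -0.42 for 6 basement membrane genes and -0.35 for 14 others, beside 0.13 for all genes compared. In bulk RNA, fewer cells of a type and less RNA per cell cannot be told apart.

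**Figure D2:**
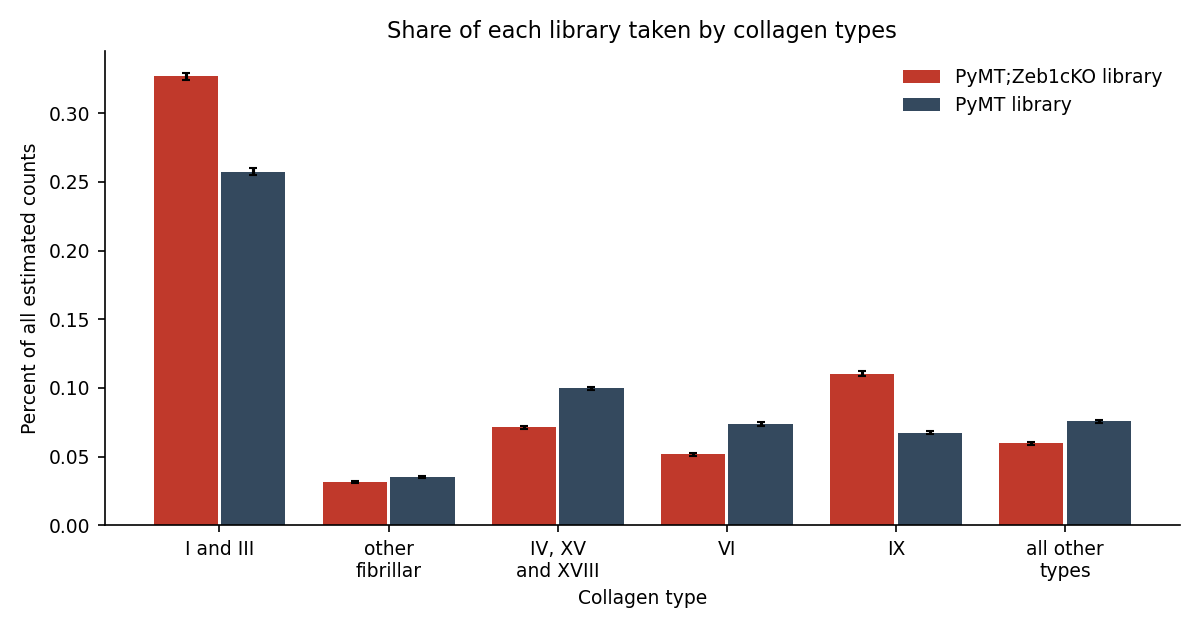
Percent of all estimated counts taken by collagen types, with the PyMT;Zeb1cKO library (red) left of the PyMT library (blue); error bars are 95% exact binomial intervals, which cover counting error only. Types I and III take 0.327% and 0.257%, type IX 0.110% and 0.0673%, and types IV, XV and XVIII 0.0714% and 0.10%.

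Types I and III, the main fibres of connective tissue, were together the most abundant collagens. With the deposited scaling they were higher in the knockout library, Col1a1 by little. Col1a1 (chromosome 11, 94936224 to 94953042, GRCm38), which encodes the alpha1 chain of type I, was at 258.95 FPKM in the knockout library and 230.84 in the PyMT library, a count ratio of 1.12 (1.11 to 1.14). Its partner chain Col1a2 was at 195.03 and 143.43, a ratio of 1.36 (1.34 to 1.39). Col3a1, whose product forms fibres together with type I, was at 145.84 and 97.48, a ratio of 1.5 (1.47 to 1.54). The 3 genes differed by unequal amounts, so the level of Col1a2 per Col1a1 was 0.753 in the knockout library and 0.621 in the PyMT library. The odds ratio of the 4 counts behind this was 1.21 (1.18 to 1.24). None of the 3 reached 2-fold. The log2 ratio of Col1a1 was 0.17, beside 0.13 for the median of all genes, and fell to 0.03 with median ratio scaling and 0.01 with TMM factors. With TMM factors Col1a2 was at 0.29 and Col3a1 at 0.43.

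Type V, which starts and limits fibre growth, did not follow types I and III. Col5a1 was at 9.72 FPKM in the knockout library and 15.42 in the PyMT library, a ratio of 0.632 (0.594 to 0.671). Col5a2 was at 16.17 and 16.33 (ratio 0.993, 0.936 to 1.05), level within counting error. Col5a3 was at 3.98 and 3.31 (ratio 1.21, 1.06 to 1.37). The level of Col5a2 per Col5a1 was accordingly 1.66 in the knockout library and 1.06 in the PyMT library, with an odds ratio of 1.57 (1.44 to 1.71). Type XXVII, a fibrillar collagen of cartilage and some epithelia, was the 1 fibrillar gene called higher. Col27a1 (chromosome 4, 63214004 to 63334991) was at 7.02 FPKM in the knockout library and 2.51 in the PyMT library, a ratio of 2.80 (2.50 to 3.14) and a log2 ratio of 1.19.

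Type IX was abundant in both libraries. Of its 3 genes, 1 was called higher in the knockout library, beside 10.2% of all genes compared. Type IX is known as a collagen on the surface of type II fibres in cartilage. Col9a1 was at 97.88 FPKM in the knockout library and 83.61 in the PyMT library, a ratio of 1.18 (1.13 to 1.22). Col9a2 was at 136.96 and 79.44, a ratio of 1.73 (1.67 to 1.80). Col9a3 (chromosome 2, 180597790 to 180622189) was at 174.05 and 85.41, a ratio of 2.05 (1.98 to 2.12) and a log2 ratio of 1.02, just past 2-fold and short of it under the other scalings. Its counts were not whole in either library, which can happen where reads match more than 1 gene, so its ratio is uncertain. The 3 chains were close to one another in the PyMT library and apart in the knockout library: Col9a2 and Col9a3 stood at 1.4 and 1.78 times Col9a1 in the knockout library, against 0.95 and 1.02 times in the PyMT library. Per length, the 3 genes made up 29.2% of summed collagen FPKM in the knockout library and 19.8% in the PyMT library, against 42.8% and 37.5% for types I and III.

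The cartilage collagens that pair with type IX were at far lower levels than type IX in both libraries, and their ratios differed in direction. Col2a1, the main fibre of cartilage, was at 4.57 FPKM in the knockout library and 11.62 in the PyMT library, a ratio of 0.394 (0.353 to 0.438) and a log2 ratio of -1.18. Col11a1, which co-assembles with type II, was at 2.98 and 2.37 (ratio 1.26, 1.10 to 1.45). Col11a2 was at 0.98 and 1.17 (ratio 0.851, 0.669 to 1.08), an interval that includes an equal share. Col10a1, a marker of hypertrophic cartilage, stayed below an FPKM of 1, with 15 and 5 counts. Of 7 cartilage and bone markers, 2 reached an FPKM of 1, and their summed FPKM was 55.12 in the knockout library and 14.07 in the PyMT library. Nearly all of that was Chad, a collagen-binding protein of cartilage, at 53.82 and 11.37 FPKM. The cartilage proteoglycan Acan was not listed in the knockout library and had 3 counts in the PyMT library. The bone gene Ibsp was not listed in the knockout library and had 2 counts in the PyMT library. Sp7, a transcription factor of bone-forming cells, had 16 counts in the knockout library and was not listed in the PyMT library. With a floor of 3 counts for the PyMT library, Sp7 was 5.41-fold higher in the knockout library. The interval for counting error put the count ratio of Sp7 at 3.91 or more. Comp had 7 and 24 counts and Matn3 4 and 2, and Bglap (osteocalcin) was at 0.73 and 2.11 FPKM.

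The main network chains of type IV were lower in the knockout library, both short of 2-fold. Col4a1 (chromosome 8, 11198423 to 11312826) was at 45.73 FPKM in the knockout library and 57.53 in the PyMT library, a ratio of 0.797 (0.771 to 0.824). Col4a2 (chromosome 8, 11312805 to 11449287) was at 38.45 and 63.22, a ratio of 0.610 (0.589 to 0.631). The level of Col4a2 per Col4a1 was 0.841 in the knockout library and 1.10 in the PyMT library, with an odds ratio of 0.765 (0.729 to 0.803). These genes are transcribed away from each other and overlap by 22 bases at their starts in the GENCODE annotation. The stretch chr8:11312801-11312830, plus strand, from the RefSeq promoter table (GRCm38.p6) is shown because it holds both starts, with the 22 shared bases in capitals; since the strand setting of the counting is not given, reads within it cannot be assigned to either gene.
Col4a1 and Col4a2 starts: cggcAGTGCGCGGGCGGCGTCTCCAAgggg

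The minor type IV chains differed in direction within another divergent pair. Col4a5 was at 11.93 FPKM in the knockout library and 9.48 in the PyMT library, a ratio of 1.26 (1.17 to 1.36). Col4a6, whose start lies 1308 bases from that of Col4a5 on chromosome X, was at 2.29 and 3.67, a count ratio of 0.722 (0.623 to 0.835). The level of Col4a6 per Col4a5 was 0.192 in the knockout library and 0.387 in the PyMT library, with an odds ratio of counts of 0.572 (0.485 to 0.675). Col4a3 and Col4a4, the chains of the adult kidney glomerulus, were near the limit of detection, with 7 and 3 counts for Col4a3 and 11 and 9 for Col4a4.

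Types XV and XVIII, close relatives in the basement membrane zone, differed in opposite directions, each past 2-fold. Col15a1 (chromosome 4, 47208161 to 47313167), which links the basement membrane to fibres beneath it, was at 8.68 FPKM in the knockout library and 2.58 in the PyMT library, a ratio of 3.37 (2.95 to 3.86) and a log2 ratio of 1.44, the highest of the 30. Col18a1 (chromosome 10, 77052178 to 77166548), whose end fragment is the angiogenesis inhibitor endostatin, was at 8.56 and 28.76, a ratio of 0.300 (0.278 to 0.324) and a log2 ratio of -1.64. The pair was thus nearly level in the knockout library, and Col18a1 was far above Col15a1 in the PyMT library. Endothelial markers, another known site of both proteins, had 8 of 9 measured members below a log2 ratio of 0, where 58.0% of all genes compared were above 0, and a summed FPKM of 61.21 in the knockout library and 106.6 in the PyMT library; their part in these differences was not tested.

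**Figure D3:**
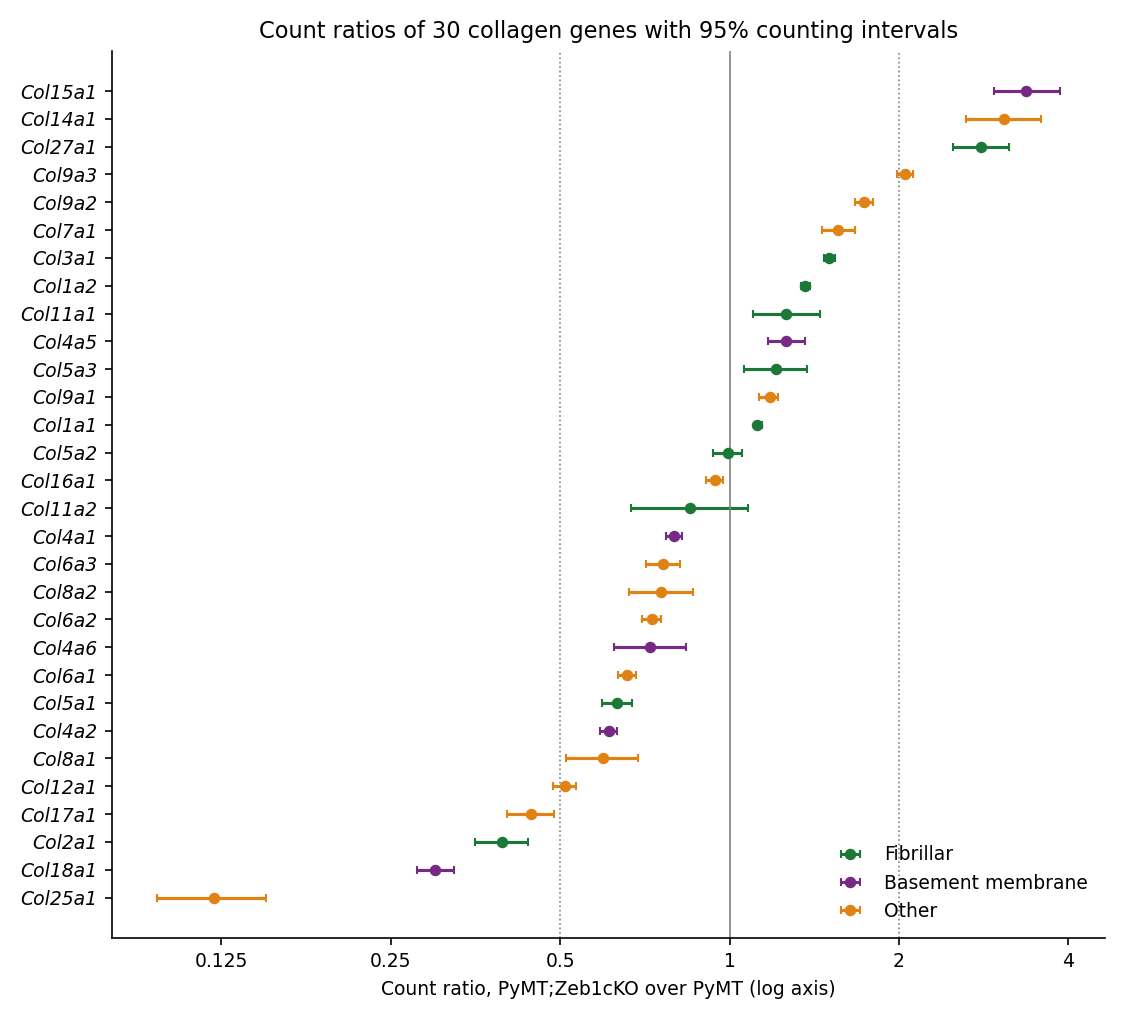
Count ratio of 30 collagen genes, PyMT;Zeb1cKO over PyMT (log axis), in order of the ratio and coloured by class; bars are 95% intervals for counting error only, the solid line marks an equal share and the dotted lines mark 2-fold either way. Col25a1 lies lowest at 0.121 and Col15a1 highest at 3.37, and 13 intervals lie above and 15 below an equal share. The same count over all genes is not given here. Genes with many counts leave an equal share at small differences, such as Col16a1 at 0.941.

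Type VI, the beaded filament around cells and fibres, had count ratios below an equal share in its 3 main chains, none past 2-fold. Col6a1 was at 60.21 FPKM in the knockout library and 91.93 in the PyMT library, a ratio of 0.658 (0.634 to 0.682). Col6a2 was at 60.91 and 84.19, a ratio of 0.727 (0.700 to 0.755). Col6a3 was at 7.75 and 10.17, a ratio of 0.762 (0.711 to 0.815). The level of Col6a2 per Col6a1 was 1.01 in the knockout library and 0.916 in the PyMT library, with an odds ratio of 1.10 (1.05 to 1.16). The level of Col6a3 per Col6a1 was 0.129 and 0.111, with an odds ratio of 1.16 (1.07 to 1.25), so the chains differed by unequal amounts. The alternative chains were rare: Col6a4 had 7 counts in the knockout library and 10 in the PyMT library, and Col6a6 had 28 and 3, a ratio of 9.47 (2.92 to 48.7). Col6a5 was not listed in the knockout library and had 10 counts in the PyMT library. With a floor of 3 counts for the knockout library, Col6a5 was 3.29-fold lower there. The interval for counting error put the count ratio of Col6a5 at 0.452 or less.

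The collagens that fasten epithelium to its base went opposite ways. Col17a1 (chromosome 19, 47646344 to 47692094), the membrane collagen of hemidesmosomes in basal epithelial cells, was at 5.28 FPKM in the knockout library and 12 in the PyMT library, a ratio of 0.443 (0.402 to 0.488) and a log2 ratio of -1.05. Col7a1, which forms the anchoring fibrils below, was at 11.22 and 7.19, a ratio of 1.56 (1.46 to 1.67). Of the laminin chains of the same adhesion zone, Lamb3 was at least 2-fold lower, at 13.84 FPKM in the knockout library and 51.31 in the PyMT library, a ratio of 0.271 (0.254 to 0.290), and Lama3 at 0.84 and 2.04, a ratio of 0.407 (0.343 to 0.483), though short of 2-fold on the FPKM + 1 scale. Basal and myoepithelial markers, which share cells with Col17a1, split, with 5 of 10 above and 5 below a log2 ratio of 0 (58.0% of all genes were above). Among them Trp63 was at 8.70 and 3.03 FPKM and Krt17 at 67.1 and 181.7.

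The lowest ratio of all 30 was that of another membrane collagen. Col25a1 (chromosome 3, 130131501 to 130599877), known from neurons and as a component of amyloid plaques, was at 0.73 FPKM in the knockout library and 5.17 in the PyMT library, with 91 and 764 counts, a ratio of 0.121 (0.0961 to 0.150) and a log2 ratio of -1.83. Col23a1, also a membrane collagen, stayed below an FPKM of 1, with 19 and 91 counts and a ratio of 0.212 (0.122 to 0.350). Col13a1, of neuromuscular junctions and other adhesion sites, had 33 and 57 counts, a ratio of 0.587 (0.370 to 0.917). Of the 4 membrane collagens, Col17a1 and Col25a1 were called lower, as were 8.78% of all genes compared. The 2 others stayed below the FPKM limit for a call. Together the 4 had 744 counts in the knockout library and 2289 in the PyMT library. All 5 measured skeletal muscle markers were 2-fold lower as well (100%, beside 8.78% of all genes). Their summed FPKM was 2.49 in the knockout library and 203.8 in the PyMT library (Acta1 at 0.25 and 112.11). The part of muscle RNA in the collagen differences was not tested.

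Among fibril-associated collagens other than type IX, type XIV was higher and type XII lower in the knockout library. Col14a1 (chromosome 15, 55307750 to 55520803), which regulates fibre diameter, was at 4.77 FPKM in the knockout library and 1.55 in the PyMT library, a ratio of 3.07 (2.63 to 3.58) and a log2 ratio of 1.18. Col12a1, found on fibres under tension, was at 19.05 and 36.34, a ratio of 0.510 (0.486 to 0.534) and a log2 ratio of -0.90, short of 2-fold with the deposited scaling. Col16a1, a minor component of fibres, was at 53.33 and 56.86, a ratio of 0.941 (0.908 to 0.975). The type VIII chains, which form networks beneath endothelium, were both lower without reaching 2-fold. Col8a1 was at 2.81 and 4.74 FPKM (ratio 0.595, 0.513 to 0.688) and Col8a2 at 4.57 and 6.06 (ratio 0.756, 0.663 to 0.862). The remaining genes stayed below an FPKM of 1: Col24a1 had 27 and 9 counts, Col26a1 32 and 18, Col20a1 12 and 12, Col19a1 4 and 5, and Col28a1 4 and 1 in the knockout and PyMT libraries. Of these, Col24a1 was the only one whose interval lay apart from an equal share, at a ratio of 3.04 (1.39 to 7.35).

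Zeb1 binds E-boxes, so the promoter windows of the RefSeq table (250 bases before to 50 after a start, GRCm38.p6) were searched for CAGGTG and CAGGTA on both strands; these 6-letter words differ in their last letter, so 1 site cannot hold both in the same direction. Of the 43 genes, 35 had windows, 38 in all. CAGGTG was found in 5 of 38 collagen windows (13.2%) and in 20.2% of all 32851 windows, and CAGGTA in 1 of 38 (2.63%) and in 12% of all. The windows around the matches in genes that reached an FPKM of 1 are shown because they are the letters Zeb1 could read there, with the match in capitals (CACCTG and TACCTG are the same words on the other strand). Positions count from the start, with the first transcribed base as 1.
Col8a1, chr16:57754723-57754782, minus strand, match at -18: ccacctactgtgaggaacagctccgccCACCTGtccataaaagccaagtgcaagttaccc
Col9a2, chr4:121039575-121039604, plus strand, match at 22: ccacagtgctctCAGGTGacaggcctgcag
Col16a1, chr4:130047632-130047691, plus strand, match at -181: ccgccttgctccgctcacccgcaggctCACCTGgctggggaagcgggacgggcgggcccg
Col17a1, chr19:47692135-47692194, minus strand, match at -125: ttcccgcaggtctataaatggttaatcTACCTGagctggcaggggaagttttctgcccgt
These 4 genes had no direction in common. Col17a1 was 2-fold lower in the knockout library, and the others were within 2-fold, with count ratios of 1.73 for Col9a2, 0.595 for Col8a1 and 0.941 for Col16a1. A match is a description of letters and does not show binding.

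Among genes that build and process collagen, some were 2-fold lower in the knockout library and none 2-fold higher, while most stayed within 2-fold. The counts below stand beside 8.78% lower and 10.2% higher over all genes compared. Of 18 measured genes of collagen folding and modification, 3 were at least 2-fold lower (16.7%) and none higher, with a median log2 ratio of -0.35. The prolyl hydroxylase subunit P4ha2 was at 9.30 FPKM in the knockout library and 62.11 in the PyMT library, P4ha1 at 5.45 and 24.16, and the lysyl hydroxylase Plod1 at 34.54 and 132.87. The collagen chaperone Serpinh1 was at 91.45 and 66.96. The prolyl hydroxylase P3h2 was at 8.56 and 4.05, a count ratio of 2.13 (1.78 to 2.56) that fell short of 2-fold on the FPKM + 1 scale. Of 7 crosslinking genes, 3 were 2-fold lower (42.9%, beside 8.78% of all genes) and none higher (median -0.66): Lox was at 3.48 and 11.49, Loxl2 at 4.10 and 10.45 and Loxl3 at 3.51 and 15.32. Counts of Loxl2 and Loxl3 were not whole, so their ratios are uncertain. Pxdn, which crosslinks type IV, was at 23.32 and 14.91. Of 4 measured genes of propeptide removal, 2 lay above and 2 below a log2 ratio of 0: the proteinases Bmp1 (20.08 and 54.72) and Adamts2 (5.66 and 12.66) were 2-fold lower, while the enhancers Pcolce (19.9 and 19.43) and Pcolce2 (9.94 and 5.31) were within 2-fold.

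Some partners and proteases of collagen were 2-fold lower in the knockout library. Of 15 basement membrane partners, 5 were 2-fold lower (33.3%, beside 8.78% of all genes) and none higher (median -0.54); besides Lamb3 these included Lama5 (5.98 and 28.04 FPKM in the knockout and PyMT libraries), Agrn (27.97 and 64.91) and Lama4. Lama1 was the 1 member above a log2 ratio of 0, at 4.23 and 1.88. No collagen receptor of 6 passed 2-fold (median -0.32), beside 8.78% of all genes lower and 10.2% higher. With so few genes this does not set receptors apart from all genes. The receptor kinase Ddr1 was at 88.42 and 118.25 and the integrin subunit Itgb1 at 67.25 and 112.77. Of 5 collagen-cleaving proteases, 2 were 2-fold lower (40.0%, beside 8.78% of all genes; median -0.88), the collagenase Mmp13 at 0.98 and 8.93 and the cathepsin Ctsk at 11.64 and 24.33. Small leucine-rich proteoglycans, which coat fibres, had a median of -0.08; lumican (Lum) was 2-fold higher, at 14.41 and 6.36, while Prelp was at 2.14 and 4.70 and decorin (Dcn) at 14.27 and 22.87.

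**Figure D4:**
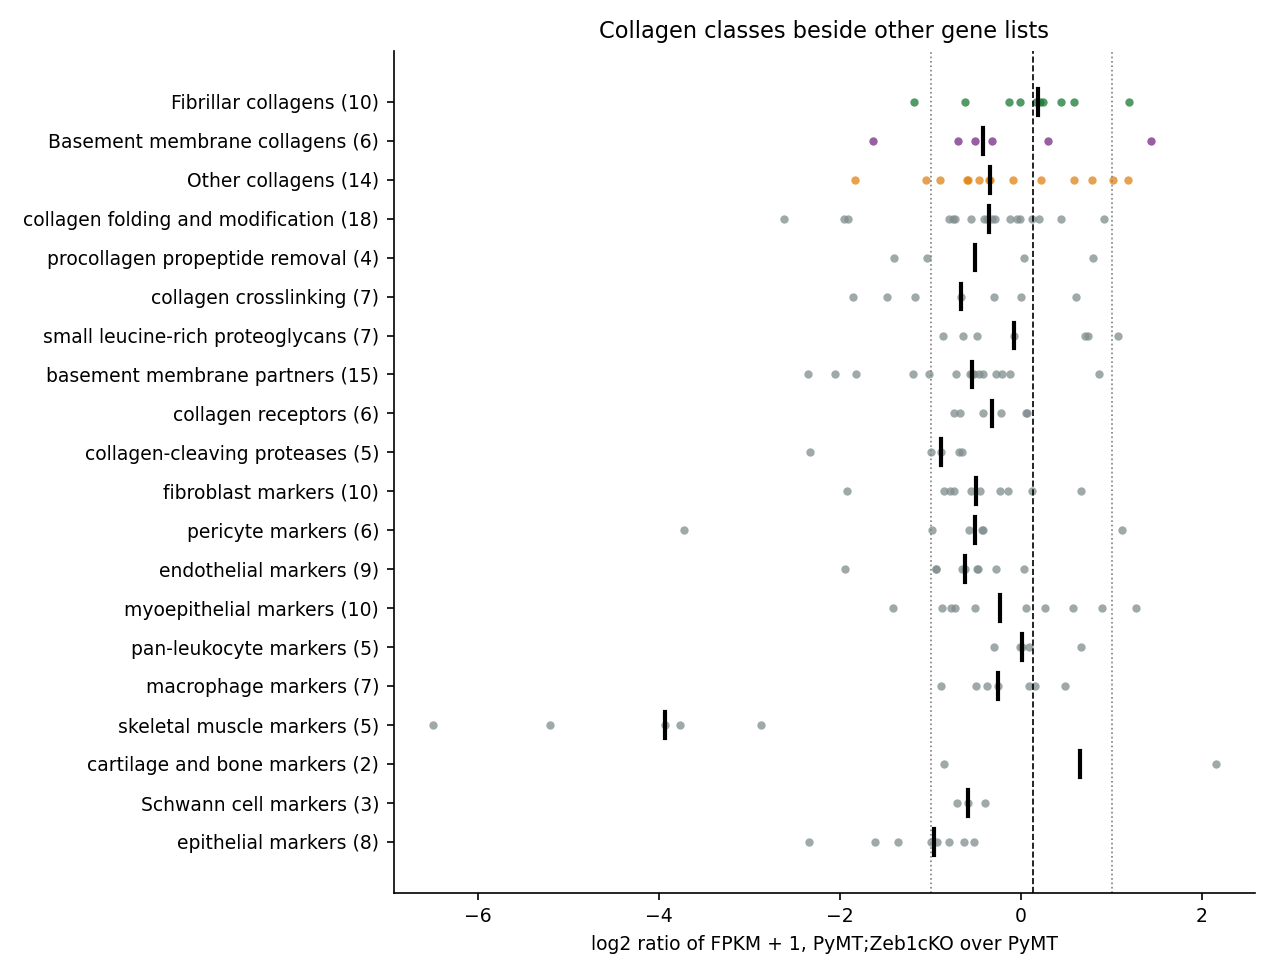
log2 ratio of FPKM + 1, PyMT;Zeb1cKO over PyMT, for each gene that reached an FPKM of 1 (points), in the 3 collagen classes and in lists of related genes and cell type markers; the number of genes is in brackets, black bars are medians, the dashed line is the median of all genes (0.13) and dotted lines mark 2-fold. The fibrillar collagens have a median of 0.19, while the crosslinking, basement membrane partner and protease lists have medians of -0.66, -0.54 and -0.88.

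Markers of the cells that make fibrillar collagen were present in both libraries, although the cells had been isolated by EpCAM. Of 10 fibroblast markers, all reached an FPKM of 1 in at least 1 library, 2 were above and 8 below a log2 ratio of 0 (58.0% of all genes compared were above), and their summed FPKM was 76.6 in the knockout library and 178.5 in the PyMT library. Periostin (Postn) was the 1 marker called lower, at 33.19 and 128.49. Most of the difference between these fibroblast sums lay in Postn alone. Pdgfra was at 3.03 and 2.71 and Thy1 at 19.76 and 12.15. The count ratio intervals of Clec3b, Cxcl12 and Twist2, below a log2 ratio of 0, and of Pdgfra, above 0, included an equal share. Pericyte markers summed to 38.85 and 78.34 FPKM, with Rgs5 at 7.13 and 2.74 and Des at 1.14 and 27.38. Most of the difference between these pericyte sums lay in Des alone. Of the 6 measured pericyte markers, 1 was above and 5 below a log2 ratio of 0, with a median of -0.51. Macrophage markers summed to 385.7 and 477.6, with 3 above and 4 below a log2 ratio of 0, C1qb at 125.77 and 118.09 and C1qa at 105.04 and 148.46. Pan-leukocyte markers summed to 92.11 and 83.96, with 3 above and 2 below 0, of which Ikzf1 was at 28.03 and 17.31 and Ptprc at 1.11 and 1.09. Myoepithelial markers summed to 609.4 and 1041. Epithelial markers, 4 of 8 of them 2-fold lower (50%, beside 8.78% of all genes), summed to 3210 and 6884. Adipocyte markers were nearly absent, at a summed 0.44 and 0.21 FPKM. Schwann cell markers summed to 245.2 and 327.7, of which Sox10, also a gene of mammary epithelium, gave 231.49 and 305.5. The part of these cells in the collagen values was not tested.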

How the data were processed

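RNA-seq of 1 knockout and 1 PyMT library was used. Per the file headers, the deposited tables hold an expected count (an estimated count, as RSEM names it), a gene length and an FPKM value per gene. The authors deposited FPKM scaled to gene length and depth. The tools in the submitters' processing notes are RSEM 1.2.8, DESeq, Bowtie2 2.2.5 and HISAT2 2.1.0, with the build mm10 and no stated roles. The annotation and strand setting were not given in the sources used here. Per the labels' protocols, messenger RNA was enriched with oligo(dT). The deposited gene length, another value in bases, was used for chain ratios, for the simulated counts and for the lengths compared under other observations.

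Estimated counts were rounded to whole numbers for ratios, with exact 95% Clopper-Pearson intervals. Log2 ratios used FPKM with a pseudocount of 1, over the 12653 genes that reached an FPKM of 1 in either library. Counts within 1e-09 of an integer were called whole. Odds ratios of chain counts have conditional exact intervals. Coordinates are from GENCODE on GRCm38, which mm10 corresponds to. Every collagen was named, with values in both libraries; from other lists, up to 2 members with the highest and 2 with the lowest ratio, with further members named after their values were seen. Some list members are not reported here. The members and lists were chosen with earlier results of these data known; type IX and alpha5 to alpha6 chain ratios were added after seeing the data. With 1 library per group, no p-value is given. The steps were tested on counts simulated with counting error only. That test holds no variation between animals or libraries, so it checks the computation and not the calls. TMM factors came from edgeR 4.0.16 in R 4.3.3; all else ran in Python 3.11.15 with scipy 1.17.1, numpy 2.4.6, pandas 2.3.3 and matplotlib 3.10.9.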

Additional observations from a re-analysis of the deposited data

How the results depend on the processing

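No paired analysis was possible because each group has 1 library, and no library could be left out. The count of collagens past 2-fold stayed between 7 and 8 under the other pseudocount, scalings and filters. Over the main and these other settings, 7.64% to 14.7% of all genes were 2-fold higher and 6.57% to 11.6% lower. The collagen count depended on the threshold: 14 genes passed 1.5-fold, 9 of them lower. At 3-fold 2 passed, 0 higher and 2 lower (Col18a1 and Col25a1). The added 1 matters there: by FPKM alone, Col15a1 and Col14a1 were 3.36-fold and 3.08-fold higher in the knockout library. The shares of all genes past 1.5-fold and 3-fold are not given here. The fibrillar median was 0.07 with median ratio scaling and 0.05 with TMM factors. The basement membrane median was -0.55 with TMM factors and -0.15 without a filter on low values, which also brought the median of other collagens to -0.04. Without the cartilage-type genes (types II, IX and XI), an alternative chosen after seeing the data, the median of all collagens was -0.33. With TMM factors the summed count ratios were 0.962 for all, 1.10 for fibrillar, 0.642 for basement membrane and 0.921 for other collagens. Without the most abundant member they were 1.05 and 1.30 (without Col1a1), 0.664 (without Col4a1) and 0.902 (without Col9a3). Type IV alone gave 0.740. Without Col9a3, the 1 member with counts that are not whole, all collagens gave 1.03 and the others 0.902; this was also chosen after seeing the data. The sums for all and for other collagens thus crossed an equal share with TMM factors, and that for other collagens also without Col9a3. Of 30 single log2 ratios, none changed sign under either scaling, and 18 moved by more than their counting error under each, as did 4 under a pseudocount of 0.1. Chain ratios were alike from FPKM and from counts over length. Both rest on the same counts and lengths, so this is not a separate check. Depth limits the genes below an FPKM of 1, where a count of 0 allows a CPM of up to 0.141 in the knockout library and 0.139 in the PyMT library.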

Other observations

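For 3 collagens the deposited gene length, which weights the listed transcripts, differed between the libraries by more than that of the other members: Col25a1 had 6034.98 bases in the knockout library and 7040.94 in the PyMT library, Col4a6 6686.99 and 5836.67, and Col12a1 6505.89 and 6704.09. The FPKM of Col4a6 therefore gives a fold of 0.624, against a count ratio of 0.722, and that of Col25a1 0.141 against 0.121.

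Neighbouring collagen genes did not always share a direction. Col3a1 and Col5a2, which face each other on chromosome 1 with 24614 bases between them, had count ratios of 1.5 and 0.993. Col6a1 and Col6a2, on the same strand of chromosome 10, were both lower, at 0.658 and 0.727. Of the 10 collagens with the highest FPKM, 9 were the same genes in both libraries. By level among collagens, Col9a3 had rank 3 in the knockout library and rank 5 in the PyMT library.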
